A study of Mus musculus with 4 samples.

Results

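The core epiblast pluripotency factors were described here as 10 genes taken by name from a table of 53715 genes: Pou5f1, Nanog, Sox2, Esrrb, Klf4, Tfcp2l1, Zfp42, Prdm14, Tdgf1 and Utf1. All 10 names were found once each. RNA came from C57BL/6 mouse embryos that were collected as zygotes from the oviduct, grown in KSOM (an embryo culture medium) and sequenced as blastocysts. The α-KG group had α-ketoglutarate at 0.15 mM from the stage with 2 pronuclei, the 2-HG group had 2-hydroxyglutarate at 0.3 mM from that stage, and each compound had a negative control of its own. Each of these 4 groups is 1 library, so no value has a replicate, no test was run, and all differences describe these libraries only. The number of embryos in a library, the form of 2-HG and the content of the control medium are not given in the sources used here. The α-KG library and its control are called the α-KG pair below, and the 2-HG library and its control the 2-HG pair. The labels do not say whether the pairs were cultured or sequenced apart.

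A blastocyst holds 3 lineages, the trophectoderm, the epiblast and the primitive endoderm. In the epiblast, OCT4 (from Pou5f1), SOX2 and NANOG bind shared enhancers and keep their own genes and each other's active. A second layer of factors, with ESRRB, KLF4, TFCP2L1 and PRDM14, holds the naive state that embryonic stem cells keep in culture. The genes of this network do not all begin at the same time: Pou5f1 RNA is present in every cell of the cleavage embryo, while Sox2 marks the inner cell mass early, and Klf4 is also active in many epithelia of the body. In whole embryos, fewer cells of a lineage and less RNA per cell cannot be told apart.

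Levels were read as TPM (a length-scaled transcript abundance that sums to the same total in each library), so genes can be set beside each other. The libraries listed 9062 to 9417 genes at 5 TPM or more. The lineage markers of a blastocyst were present. Krt8, a trophectoderm keratin, was at 1985 to 2523 TPM, Cdx2 at 13.5 to 17.3 TPM and Gata6, of the primitive endoderm, at 161 to 212 TPM. The later primitive endoderm factors were low, with Gata4 at 0.14 to 0.99 TPM and Sox17 at 0.10 to 1.67 TPM. Cumulus and granulosa markers summed to 1.08 to 2.50 TPM over 10 genes, with Has2, Ptx3, Tnfaip6, Fshr, Amh and Inhba at 0 in all 4 libraries. Oviduct and blood markers summed to 0.94 to 4.56 TPM over 8 genes.

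Promoter windows of 300 bases, 250 before to 50 after the RefSeq start in GRCm38.p6, were available for 9 of the 10 genes. They were searched on both strands for the octamer core TTTGCAT, which POU factors such as OCT4 bind, for the SOX core CATTGT, for both joined as TGCATNACAA, and for AAGGTCA, which nuclear receptors such as ESRRB bind. The GC box GGGCGG, which SP and KLF factors bind, was searched as well. Of 32851 promoter windows in the table, 4.63% held the octamer core, 12.6% the SOX core, 0.289% the joined form, 4.72% AAGGTCA and 35.7% the GC box. Among the 9 windows, those of Nanog, Sox2 and Zfp42 held the octamer core, and that of Nanog held the joined form, which overlaps its octamer core and its SOX core. The Esrrb window held a SOX core, and AAGGTCA was in none of the 9. The GC box was in 6 of the 9, those of Pou5f1, Sox2, Klf4, Zfp42, Tdgf1 and Utf1. The windows of Nanog, Sox2 and Zfp42 are shown because they carry the octamer core, and that of Pou5f1 as the core factor whose window held only the GC box. Capitals mark matches to the octamer and SOX cores and their joined form, GC boxes stay in lower case, and all are written 5′ to 3′ on the strand of the gene.
Nanog: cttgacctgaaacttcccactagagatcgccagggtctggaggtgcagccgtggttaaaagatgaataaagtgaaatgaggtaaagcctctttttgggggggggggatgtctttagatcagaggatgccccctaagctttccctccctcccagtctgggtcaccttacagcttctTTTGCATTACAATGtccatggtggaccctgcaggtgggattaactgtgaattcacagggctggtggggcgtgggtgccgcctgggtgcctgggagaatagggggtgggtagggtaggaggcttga
Sox2: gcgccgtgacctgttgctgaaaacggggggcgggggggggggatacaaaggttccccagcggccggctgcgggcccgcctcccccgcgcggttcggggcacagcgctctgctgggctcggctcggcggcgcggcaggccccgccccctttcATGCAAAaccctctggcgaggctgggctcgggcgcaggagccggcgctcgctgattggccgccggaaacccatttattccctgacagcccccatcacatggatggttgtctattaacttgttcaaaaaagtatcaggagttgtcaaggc
Zfp42: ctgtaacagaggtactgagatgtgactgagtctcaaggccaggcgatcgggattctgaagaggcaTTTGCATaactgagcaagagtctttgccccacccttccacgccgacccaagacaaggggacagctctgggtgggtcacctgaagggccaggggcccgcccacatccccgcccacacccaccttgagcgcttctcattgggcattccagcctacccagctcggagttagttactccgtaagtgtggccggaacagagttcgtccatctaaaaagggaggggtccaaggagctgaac
Pou5f1: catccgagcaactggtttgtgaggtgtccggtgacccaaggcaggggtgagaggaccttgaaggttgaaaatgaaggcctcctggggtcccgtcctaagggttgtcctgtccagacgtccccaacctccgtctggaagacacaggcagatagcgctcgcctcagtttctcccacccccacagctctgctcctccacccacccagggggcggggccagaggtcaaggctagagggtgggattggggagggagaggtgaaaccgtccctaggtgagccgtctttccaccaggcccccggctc
The windows lie at chr6:122707239-122707538 on the plus strand for Nanog, chr3:34649745-34650044 on the plus strand for Sox2, chr8:43306960-43307259 on the minus strand for Zfp42 and chr17:35505782-35506081 on the plus strand for Pou5f1. The first octamer base is 75 bases before the start in Nanog, 99 before it in Sox2 and 185 before it in Zfp42. The RefSeq start of Sox2 lies 410 bases before the GENCODE gene start, so its window does not reach the GENCODE start. A match of letters is not a measured binding site.

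The 10 genes spanned a wide range, and their order was nearly the same in every library. Zfp42, which encodes the zinc finger protein REX1 and is a marker of naive cells, was the most abundant in all 4 libraries and Prdm14 the least abundant in all 4. Tfcp2l1 came next throughout, then Tdgf1, Nanog and Pou5f1, except that Nanog stood above Tdgf1 in the 2-HG control. The places between Pou5f1 and Prdm14 changed hands among Klf4, Utf1, Sox2 and Esrrb. Neighbours whose ranges over the 4 libraries overlapped were Zfp42 and Tfcp2l1, Tdgf1 and Nanog, Nanog and Pou5f1, and each neighbouring pair from Klf4 down to Prdm14, while Tfcp2l1 stayed above Tdgf1 and Pou5f1 above Klf4 without overlap. The 10 genes summed to 647 TPM in the α-KG control, 645 TPM with α-KG, 568 TPM in the 2-HG control and 501 TPM with 2-HG. Zfp42 and Tfcp2l1 made up most of this sum, at 34.9% to 37.0% and at 26.9% to 34.3%.

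**Figure D1:**
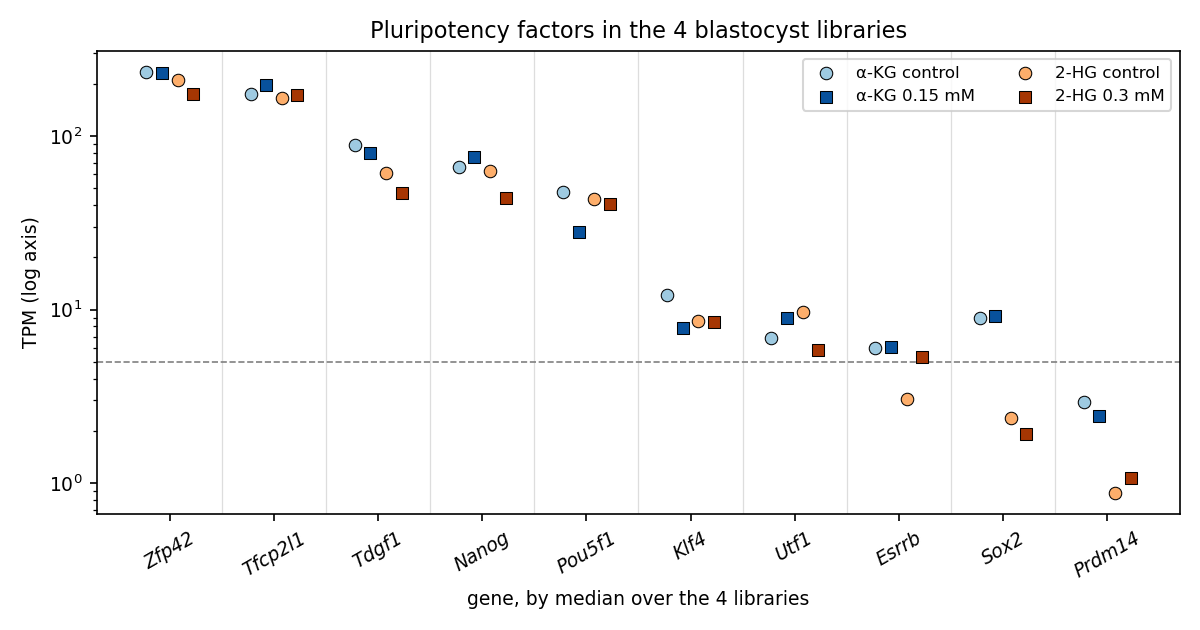
TPM of each of the 10 genes (log axis) in the 4 libraries, 1 point per library, with a dashed line at 5 TPM. The points of most genes lie close together, while Sox2 and Prdm14 have the 2-HG pair well below the α-KG pair.

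Pou5f1 encodes OCT4, the POU factor without which the inner cell mass loses its identity. It is annotated as a protein-coding gene on chromosome 17, from 35506018 to 35510772 on the plus strand of GRCm38. Pou5f1 had 47.3 TPM in the α-KG control, 28.1 TPM with α-KG, 43.3 TPM in the 2-HG control and 40.6 TPM with 2-HG. The α-KG library was the low one and the other 3 lay close together. Its log2(TPM + 1) difference with α-KG was -0.73, larger in size than that of 86.6% of the 9878 genes measured in that comparison. With 2-HG the difference was -0.09. The antisense gene Gm19553, which overlaps the end of Pou5f1, was at 0 TPM in all 4 libraries.

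Nanog encodes a homeodomain factor that is needed to form the epiblast, and lies on chromosome 6 from 122707489 to 122714633. It had 66.3 TPM in the α-KG control, 75.2 TPM with α-KG, 62.8 TPM in the 2-HG control and 44.2 TPM with 2-HG. Both controls were alike and the 2-HG library was the low one. The difference was 0.18 with α-KG and -0.50 with 2-HG, where 71.1% of 9834 genes had a smaller difference in size. The processed copies Nanog-ps1 and Nanog-ps2 were at 0.02 TPM or less in each library.

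Sox2 encodes the HMG-box partner of OCT4, and is a single gene on chromosome 3 from 34650405 to 34652461, inside the long noncoding gene Sox2ot on the same strand. Sox2 had 8.91 TPM in the α-KG control, 9.18 TPM with α-KG, 2.38 TPM in the 2-HG control and 1.92 TPM with 2-HG. The libraries of the 2-HG pair were low whether treated or not, and the compounds themselves went with little difference, at 0.04 for α-KG and -0.21 for 2-HG. The 2-HG comparison of Sox2 did not reach the 5 TPM minimum. Sox2ot was at 0 TPM in the α-KG pair, 0.07 TPM in the 2-HG control and 0.34 TPM with 2-HG.

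The naive factors included the most even gene of the 10. Tfcp2l1, a CP2-family factor downstream of LIF signalling in mouse embryonic stem cells, had 174 TPM in the α-KG control, 197 TPM with α-KG, 166 TPM in the 2-HG control and 172 TPM with 2-HG. Its highest value was 1.19 times its lowest, the smallest such ratio of the 10. Zfp42 was at 234, 231, 211 and 175 TPM in the same order of libraries, with 2-HG the lowest.

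Klf4, a Krüppel-like zinc finger factor, had 12.1 TPM in the α-KG control, 7.89 TPM with α-KG, 8.57 TPM in the 2-HG control and 8.54 TPM with 2-HG. The α-KG control was the high one, and the difference with α-KG was -0.56. Esrrb, an orphan nuclear receptor, was at 6.04, 6.07, 3.07 and 5.34 TPM in that order. Here the 2-HG control was the low one, so that the difference of 0.64 with 2-HG was in the direction of the α-KG pair's level. Prdm14, a PR-domain protein that restrains FGF signalling and DNA methylation in stem cells, was at 2.93, 2.43, 0.88 and 1.07 TPM. It passed the 5 TPM minimum in no library and is left out of all counts of measured genes.

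Utf1, a chromatin-bound protein of undifferentiated cells and a target of OCT4 and SOX2 in mouse stem cells, had 6.89 TPM in the α-KG control, 9.0 TPM with α-KG, 9.69 TPM in the 2-HG control and 5.84 TPM with 2-HG. Its difference of -0.64 with 2-HG was about as large as that of Esrrb, in the opposite direction. Tdgf1 encodes Cripto, the membrane-anchored co-receptor of Nodal. It was at 88.5, 79.3, 61.6 and 46.8 TPM in the same order, so the 2-HG pair lay below the α-KG pair and the treated library was the lower one in each pair. Its processed copy Tdgf1-ps2 was at 0.20 TPM or less.

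None of the measured genes was 2-fold apart, a log2(TPM + 1) difference of at least 1, in either treated comparison. With α-KG this was 0 of 9 measured genes, where 7.31% of all genes passed the same rule. Of all genes, 4.21% were higher and 3.1% lower by this rule with α-KG. With 2-HG it was 0 of 8, where 8.01% of all genes passed, 2.36% as higher and 5.65% as lower, Sox2 and Prdm14 being under the minimum. At these shares few or none of so small a set would be expected to pass in any case. The median difference with α-KG was 0.01, against 0.05 for all genes, with 4 of 9 below 0, where 44.2% of all genes were. The median with 2-HG was -0.18, against -0.12 for all genes, with 6 of 8 below 0, where 62.4% of all genes lay below 0. With median-of-ratios scaling, the medians with 2-HG became -0.05 for the factors and 0.01 for all genes. Thus the small negative median with 2-HG lay near that of the library as a whole.

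**Figure D2:**
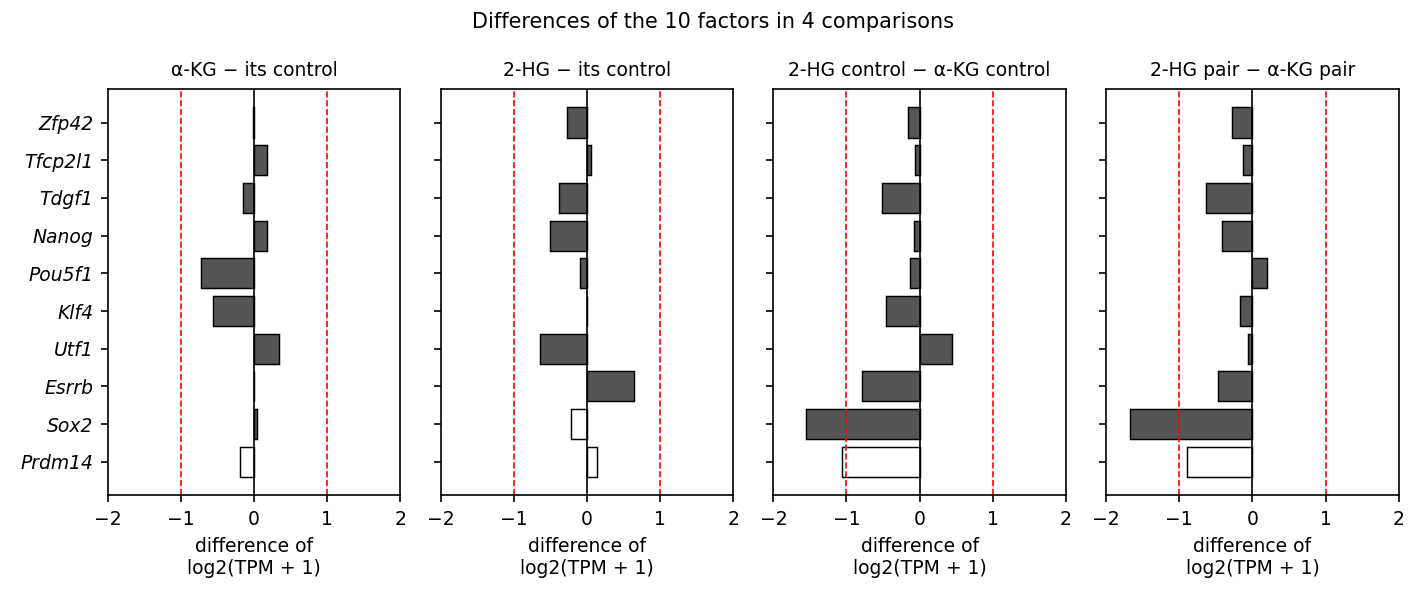
Differences of log2(TPM + 1) for the 10 genes in 4 comparisons, 1 bar per gene, filled where the gene reached 5 TPM in at least 1 library compared and open where it did not. Dashed lines mark a 2-fold difference, which among filled bars is passed by Sox2 alone, at -1.55 between the controls and -1.68 between the pairs.

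Between the controls, Sox2 was the 1 measured gene of 9 that passed the 2-fold rule, with a difference of -1.55 for the 2-HG control minus the α-KG control. Of all genes, 8.86% passed that rule and 2.87% passed it as lower. Low genes passed more often: of 2994 genes with a mean under 12 TPM over the 4 libraries, 5.98% were at least 2-fold lower. Sox2 was larger in size than 97.0% of all genes here, but it reached the 5 TPM minimum through the α-KG control alone. Being at 2.38 TPM in the 2-HG control, it could enter this comparison only as lower. Esrrb followed at -0.79, Tdgf1 at -0.52 and Klf4 at -0.46, and Utf1 was the only measured one of the 10 above 0, at 0.44. The median of the 9 was -0.15, against 0.09 for all genes, and 8 of 9 lay below 0 where 41.7% of all genes did.

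The pairs were then compared as a whole. Both controls are part of the pair means, so this comparison is not independent of that between the controls. In 7 of the 10 genes both libraries of the 2-HG pair lay below both libraries of the α-KG pair: Nanog, Sox2, Esrrb, Tfcp2l1, Zfp42, Prdm14 and Tdgf1. Prdm14 did not reach the minimum, which leaves 6 of 9 measured genes, and 20.3% of all genes were lower in this sense and 20.3% higher. None of the 10 was higher, and Pou5f1, Klf4 and Utf1 overlapped. With median-of-ratios scaling Tfcp2l1 overlapped too, which left 5 of 9 beside 20.5% of all genes. The differences between pair means were -1.68 for Sox2, -0.63 for Tdgf1, -0.47 for Esrrb, -0.42 for Nanog, -0.28 for Zfp42 and -0.13 for Tfcp2l1, with a median of -0.28 over the 9 and 0.00 over all genes. On these means 8 of 9 lay below 0, where 49.7% of all genes did, and Pou5f1 was the 1 above it, at 0.19. Klf4 was at -0.18 and Utf1 at -0.05. Sox2 was the 1 of 9 past 2-fold, where 4.73% of all genes were and 2.19% were lower, or 4.82% of those with a mean under 12 TPM, and its size was above that of 98.9% of all genes. It reached the 5 TPM minimum in the α-KG pair alone, so this call too rests on that side. The pairs each hold a control and a treated library with a different compound, so the difference cannot be told apart from any other way in which the pairs were handled.

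Ratios within a library do not depend on its scaling. Sox2 was at 0.188 of Pou5f1 in the α-KG control and 0.327 with α-KG, against 0.0549 in the 2-HG control and 0.0472 with 2-HG. Set against Nanog it was at 0.134 and 0.122 in the α-KG pair, against 0.0378 and 0.0433 in the 2-HG pair, so the pairs stayed apart while the libraries within a pair were close. The ratio of Nanog to Pou5f1 behaved otherwise, at 1.40 and 1.45 in the controls, 2.68 with α-KG and 1.09 with 2-HG. Here the controls were alike and the α-KG library was the one apart. Zfp42 over Tfcp2l1 stayed between 1.02 and 1.35.

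**Figure D3:**
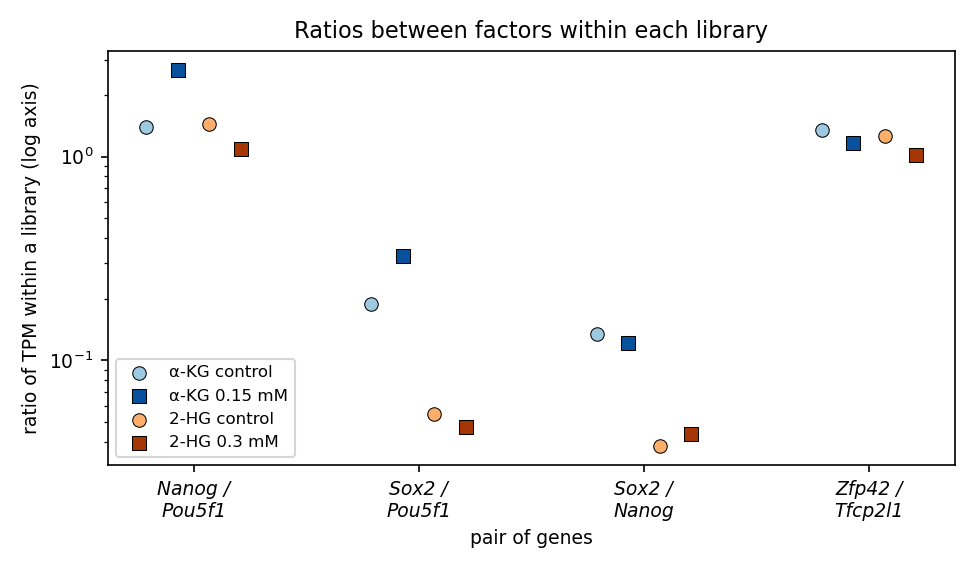
Ratios of TPM between factors within each library (log axis), 1 point per library. Both ratios of Sox2 are lower in the 2-HG pair, and Nanog over Pou5f1 is highest with α-KG, at 2.68.

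The genes of the fixed lists with the nearest pattern over the 4 libraries were found for the 3 core factors, by the Euclidean distance between log2(TPM + 1) values centred on each gene's mean, among 111 candidates. For Sox2 they were Fgf4, the FGF ligand of the epiblast and a known OCT4 and SOX2 target, at a distance of 0.92, then Etv5 at 0.98 and Dusp6 at 1.02. Of all 10419 other genes, 116 were at least as near to Sox2 as Fgf4. For Nanog they were the trophectoderm factors Tfap2a at 0.11 and Tfap2c at 0.12 and the chromatin remodeller subunit Arid1a at 0.16, and 28 of all genes were at least as near as Tfap2a. For Pou5f1 they were the Mediator subunit Med1 at 0.32, Klf4 at 0.39 and Stat3 at 0.40, with 307 genes at least as near as Med1. With 4 libraries, likeness of this kind is a description of level patterns only.

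The wider naive network list held 25 genes, of which 21 reached the minimum in at least 1 library. With α-KG 2 of its 21 measured genes were at least 2-fold higher, Zfp281 and Tdh, and 0 lower, beside 4.21% and 3.1% of all genes. With 2-HG 2 of 20 were higher, Zfp281 and Spic, and 1 lower, Tdh, beside 2.36% and 5.65% of all genes. Zfp281, a zinc finger partner of the pluripotency network, was at 0.07 TPM in each control, 27.0 TPM with α-KG and 16.2 TPM with 2-HG. Both control values lie near 0 and each group is 1 library, and the cause of this pattern was not tested. Tdh, the threonine dehydrogenase on which mouse stem cells depend, had 4.66 TPM in the α-KG control, 14.7 TPM with α-KG, 8.49 TPM in the 2-HG control and 1.96 TPM with 2-HG. Spic, an ETS-family factor, was at 118, 136, 54.2 and 139 TPM in that order, the 2-HG control being the low one. Between the pairs the list had a median of -0.24, with 8 of 21 genes lower without overlap, beside 20.3% of all genes, and 3 higher. The lower ones included Sall4, a zinc finger partner of OCT4, at -0.52, the nuclear receptor gene Nr5a2 at -0.47 and Rif1 at -0.56. Lin28a, Tcl1 and Mybl2 were the higher ones, with Tcl1 at 0.77.

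The FGF and ERK list stood lowest between the pairs among the lists with at least 5 measured genes, with a median of -0.61 over 9 genes. In the inner cell mass, FGF4 signals through FGFR1 and FGFR2 and turns cells toward the primitive endoderm. Dusp6, Spry2 and Etv5 are common readouts of this path. Fgf4 had 4.11 TPM in the α-KG control, 6.41 TPM with α-KG, 0.98 TPM in the 2-HG control and 2.48 TPM with 2-HG. In both pairs the treated library was the higher one, and the 2-HG pair lay below the α-KG pair. Fgf4 reached 5 TPM with α-KG alone, so it could not count as higher in the 2-HG pair without overlap. It also belongs to the wider naive network list and is counted among the lower genes of both lists. Etv5 was at 12.2, 11.9, 5.10 and 7.68 TPM in the same order. Dusp6 was at 19.9, 25.1, 17.2 and 8.93 TPM, and Spry2 at 27.8, 22.8, 15.8 and 16.5 TPM. Together with the adaptor gene Grb2, which was at 38.1 TPM with α-KG and 10.4 to 14.8 TPM elsewhere, these were 5 of 9 genes lower without overlap, beside 20.3% of all genes. The receptor gene Fgfr1 was higher in the 2-HG pair, at 17.6 and 20.9 TPM against 13.0 and 11.8 TPM. In the treated comparisons 1 of 8 genes of the list was 2-fold higher with α-KG, Grb2, beside 4.21% of all genes, and 0 of 8 were 2-fold apart with 2-HG, beside 8.01%.

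Cripto acts with Nodal, and the genes of this path were at uneven levels. Nodal itself was at 0.14 TPM in the 2-HG control and at 0 in the other 3 libraries, and its feedback inhibitors Lefty1 and Lefty2 were at 0.39 TPM or less. The receptor gene Acvr2b was at 33.4 to 46.2 TPM and the proprotein convertase gene Pcsk6 at 68.1 to 96.5 TPM. With α-KG 0 of 9 measured genes of this list were 2-fold apart, beside 7.31% of all genes, and with 2-HG 2 of 10 were lower, beside 5.65%. These were Foxh1, a partner of SMAD2, at 1.28 TPM with 2-HG against 5.96 TPM in its control, and Smad3, at 3.47 against 9.95 TPM. Both reached the 5 TPM minimum through the control alone, so each could enter this comparison only as lower. Foxh1 was also lower with α-KG, at 2.08 against 4.36 TPM, but under the minimum there.

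In the LIF and STAT3 list 0 of 5 measured genes were 2-fold apart in either treated comparison. Of all genes, 7.31% were with α-KG and 8.01% with 2-HG. Tyk2 lay just under the rule with α-KG, at 0.99. With 2-HG all 5 lay below 0, where 62.4% of all genes did, with a median of -0.44 against -0.12 for all genes. Lif was at 6.55 to 10.2 TPM and Stat3 at 27.1 to 45.4 TPM, while the receptor genes Lifr and Il6st were at 0.60 TPM or less and 1.29 TPM or less. The WNT and GSK3 list also had 0 of 5 in either treated comparison, beside the same shares. Of 12 genes of the formative and primed states, 2 reached 5 TPM, the DNA methyltransferase genes Dnmt3a and Dnmt3b. Otx2 was at 0.39 to 2.14 TPM, and Fgf5 and Zic2 were at 0 in all 4 libraries. The list of chromatin and coactivator partners of OCT4 had 0 of 21 genes 2-fold apart in each of the 4 comparisons, where 4.73% to 8.86% of all genes were. In the 2-HG pair 9 of 21 were lower without overlap, beside 20.3% of all genes. Among them were Arid1a at -0.39, Chd4 at -0.37 and Smarcc1 at -0.36. Hdac1 was the 1 higher without overlap, at 0.43, the largest difference in size of this list between the pairs.

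**Figure D4:**
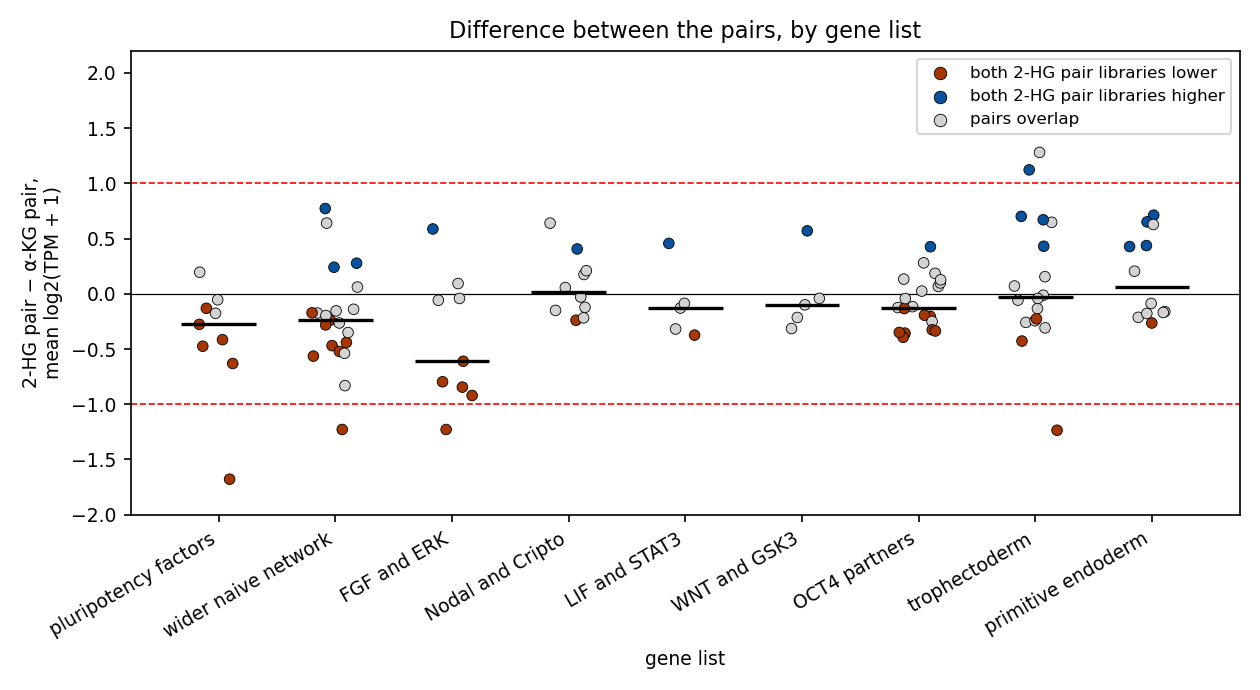
Difference between the 2-HG pair and the α-KG pair for each measured gene of 9 lists, with the list median as a bar and dashed lines at 2-fold. Points are coloured where both libraries of one pair lie beyond both of the other, and the FGF and ERK list has the lowest median, at -0.61.

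Markers of the other lineages did not share 1 direction between the pairs. Of 18 trophectoderm genes, 3 were lower and 4 higher in the 2-HG pair without overlap, beside 20.3% and 20.3% of all genes, with a median of -0.03. The trophectoderm list summed to 7787 and 8229 TPM in the 2-HG pair against 6993 and 7939 TPM in the other. Most of each sum was Krt8, at 1985 to 2523 TPM, and Krt18, at 3607 to 4339 TPM. The sums therefore follow these keratins rather than the list as a whole. Among the trophectoderm transcription factor genes, Elf5, Tfap2a, Tfap2c, Eomes, Gata3, Tead4 and Cdx2 lay below 0 between the pairs, from -1.24 to -0.06. Gata2 lay above 0, at 0.65. Krt7, Cldn4, Aqp3 and Lgals3 were the 4 genes higher without overlap. Elf5 had 6.90 TPM in the α-KG control, but 1.20 TPM or less in the other libraries, and Cldn4 at 394 TPM in the 2-HG control and 91.6 to 155 TPM elsewhere. With α-KG, 2 of 18 were at least 2-fold lower, beside 3.1% of all genes, Elf5 and the desmosome gene Dsp, at 12.5 TPM with α-KG against 80.3 TPM in its control. With 2-HG 2 of 17 were lower, Cldn4 and Gata2, beside 5.65% of all genes. The list median with 2-HG was -0.25, against -0.12 for all genes, and 10 of 17 lay below 0 where 62.4% of all genes did. Of 12 primitive endoderm genes, 4 were higher without overlap, beside the same 20.3%, among them Lama1 at 0.71, and Gata6 was the 1 lower, at -0.26. With α-KG 0 of 10 primitive endoderm genes were 2-fold apart, beside 7.31% of all genes, and with 2-HG 1 of 12 was lower, beside 5.65%, Nid2, at 35.0 and 15.7 TPM. The oocyte list summed to 48.8 to 57.5 TPM, mostly Ooep at 30.8 to 50.2 TPM. The 2 measured genes of this list went opposite ways between the pairs, beside 20.3% of all genes lower and 20.3% higher without overlap. Ooep was lower in the 2-HG pair without overlap, at -0.43. Padi6 was higher without overlap, at 5.84 and 9.38 TPM against 4.39 and 2.25 TPM. Padi6 reached the 5 TPM minimum in the 2-HG pair alone, so it could not count as lower there without overlap. Of the genes of the 2-cell stage, only Zfp352 reached 5 TPM, at 7.28 TPM with α-KG, and it was at 0.27 TPM or less elsewhere. The part of cell composition in the lower level of most, but not all, of the pluripotency factors in the 2-HG pair was not tested.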

How the data were processed

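For 4 libraries, 1 per group, the authors deposited TPM values by gene. The submitters' processing notes name HISAT2, StringTie, Trimmomatic, DESeq2 and Picard, and the builds GRCm38.p6 and mm10. Their versions, roles and order are not given in the sources used here. Another 10 columns of a deposited worksheet were not used. The depth of each library is unknown, so no counting intervals are given. IDs were matched without their version to GENCODE M21 of GRCm38, 53620 of 53715. Differences were taken on log2(TPM + 1), where a gene reached 5 TPM in 1 or more of the libraries compared. A gene that reached 5 TPM in only 1 of 2 libraries could enter only as higher in that library. Among the called genes this held for Zfp281 and Tdh with both compounds, Foxh1, Smad3 and Gata2 with 2-HG, and Elf5 with α-KG. Adding 1 shrinks the differences of low genes. A 2-fold rule served to describe size, and no test was run. Differences between pairs used the mean of log2(TPM + 1) in each pair. The treated comparisons each share a library with the comparison of controls, so these are not independent. The 10 members and the 13 further lists, with 183 entries of which 181 were found, were chosen with earlier results of these data known. Named genes were the members, up to 3 genes of each list past 2-fold, a few defining genes, and the nearest patterns to Pou5f1, Nanog and Sox2; further examples were chosen after their values were seen. Promoter sequences are from RefSeq, GRCm38.p6. The background share among genes with a mean under 12 TPM was added with the values in view. The calculation of the treated comparisons was checked on noise-free copies of 1 library, where planted changes are recovered by design. That check held no changed low genes and did not cover the comparisons of controls or pairs. Python 3.11.15, numpy 2.4.6, pandas 2.3.3 and matplotlib 3.10.9 were used.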

Additional observations from a re-analysis of the deposited data

How the results depend on the processing

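The calls of Sox2 and Prdm14 moved with the setting, and those of no other member under the settings tried at 2-fold. Against the mean of both controls 1 member was 2-fold apart with 2-HG, and against the other compound's control 1 member with each compound, in each case Sox2, at -1.19, -1.76 and, with α-KG, 1.59. Of all genes, 181 of 9736 were higher and 403 lower with 2-HG against that mean. Against the other control these were 402 and 489 of 9746 with 2-HG, and 327 and 523 of 10003 with α-KG. With a pseudocount of 5 Sox2 passed the rule neither between the controls, at -0.92, nor between the pairs, at -0.98, leaving 0 members. With a minimum of 1 TPM or none, Prdm14 joined Sox2 between the controls, at -1.06, for 2 members. Of all genes at a minimum of 1 TPM, 1404 of 15026 were higher there and 852 lower. At 1.5-fold, 1 member of 9 passed with α-KG, 2 of 8 with 2-HG, 2 of 9 between the controls and 2 of 9 between the pairs. Of all genes, 1090 of 9878 were then higher and 812 lower with α-KG, and 652 and 1594 of 9834 with 2-HG. Between the controls these were 1619 and 814 of 9927, and between the pairs 897 and 771 of 10420. The median over members with 2-HG moved from -0.18 to -0.049 with median-of-ratios scaling, to -0.34 against the mean of both controls and to -0.42 against the other control. With α-KG it moved from 0.01 to 0.11 and 0.25 against these controls, and between the controls from -0.15 to -0.30 with the lower minimum or none. Of 256 single-gene values under other settings, 249 kept their side of the rule. Over all genes, the share of higher genes among those called moved with 2-HG from 29.4% to 42.4% with median-of-ratios scaling. No paired analysis was possible because each group has 1 library and the labels give no replicate numbers. Unknown depth limits the genes under 10 TPM most.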

Other observations

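Sox21, a SOX-family gene that SOX2 and OCT4 regulate in the early mouse embryo, was in none of the lists and was chosen after its values were seen. It had 18.2 TPM in the α-KG control, 10.1 TPM with α-KG, 5.69 TPM in the 2-HG control and 6.59 TPM with 2-HG. As with Sox2, both libraries of the 2-HG pair lay below both of the α-KG pair, although unlike Sox2 it was also lower with α-KG than in its own control.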
